A study of Mus musculus with 1019 samples.

Results

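The translation factors described here are the genes whose symbols begin with Eif1 to Eif6 or with Eef1 or Eef2, which gave 63 of the 23725 genes of a single-cell count table. A total of 60 had a count in at least 1 library, and 50 reached the 50 counts over the 3 libraries that were asked of a gene before it was compared. The cells came from epididymal visceral adipose tissue (VAT) and from spleen of male B6 mice aged 20 months, with no genotype, transgene or treatment given in the labels. All were sorted as live (DAPI-) TCRb+ CD4+ CD25+ cells, a gate that enriches regulatory T cells (Tregs). VAT contributed 2 libraries, numbered 2 and 3 in the labels, with 330 and 314 cells, and spleen contributed 1 library with 375 cells. Enzymes (collagenase and dispase) freed the cells of VAT and mechanical force those of spleen, so tissue and dissociation cannot be told apart in any comparison. Some labels of the spleen cells also name visceral adipose tissue, and these cells were grouped by their source name, spleen.

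The measurement was inDrops, a droplet method that tags each captured mRNA at its 3′ end with a unique molecular identifier (UMI), so that a count is a count of molecules. The VAT libraries held 556099 and 548770 UMIs and the spleen library 573622, with a median of 1565 and 1611 UMIs per cell in VAT and 1423 in spleen. Levels are given as UMIs and as CPM, the share of a library's UMIs scaled by a common factor. A 3′ tag counts molecules and not length, so levels of different genes may be set side by side as UMIs without a correction for length. The T cell and Treg markers were found in each library: Foxp3 had 263 and 189 UMIs in VAT against 221 in spleen, and Cd4 had 374 and 233 in VAT against 400 in spleen. Others of the 8 markers differed between the tissues: Il2ra (614 and 555 UMIs in VAT against 260 in spleen) and Ctla4 (351 and 308 against 75) were 2-fold or more higher in each VAT library, and Cd3d (132 and 127 against 283) lower. The labels name no animal and spleen is a single library, so no test between tissues was made. The 95% intervals below are exact binomial (Clopper-Pearson) intervals, which cover counting error only.

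Ribosomal protein mRNAs took 17.7% and 19.7% of UMIs in VAT against 30.1% in spleen, and the CPM of every other gene depends on that gap. Immediate early genes, which respond to enzymatic digestion of tissue among other stimuli, passed a 2-fold rule upward in VAT in 12 of 12 cases. Their part in the results was not tested. Among markers of other cells, the B cell list summed to 17 and 37 UMIs in VAT against 93 in spleen with Cd79a at 0, and the erythroid list to 1 and 1 against 116. The myeloid list summed to 119 and 124 UMIs in VAT against 53 in spleen, nearly all of it Cst3, with C1qa, C1qb, C1qc and Adgre1 at 0. Stromal and endothelial markers gave 1 and 4 UMIs in VAT against 30 in spleen, adipocyte markers 3 and 3 against 0, and the CD8 and NK list 37 and 36 against 33. Cell barcodes were shared by 2 cell pairs between the VAT libraries and by 1 pair between VAT library 3 and spleen.

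Translation begins when eIF2, loaded with GTP and the initiator tRNA, joins the small ribosomal subunit together with eIF1, eIF1A, eIF3 and eIF5. The eIF4F complex (the cap-binding eIF4E, the scaffold eIF4G and the helicase eIF4A) brings the mRNA, and eIF5B then joins the large subunit. In elongation eEF1A delivers aminoacyl tRNAs and eEF2 moves the ribosome along the mRNA. Supply of these parts is tied to growth signals: many mRNAs of ribosomal proteins and elongation factors start with a terminal oligopyrimidine (TOP) tract, a cytosine followed by further pyrimidines, through which mTORC1 controls their translation. T cells raise their translation when they are activated.

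The 9 factors with a known TOP mRNA (Eef1a1, Eef1b2, Eef1d, Eef1g, Eef2, Eif3e, Eif3f, Eif3h and Eif4b) are compared with the other factors below, so the letters around their annotated start sites are shown first. Each line has 30 bases of the transcribed strand from the RefSeq promoter table on GRCm38.p6, and the capitals mark the longest run of C and T that begins with C within 30 bases either side of the annotated start. The first 5 lines are all the TOP factors with an entry in that table, and Eif1, the most abundant factor outside the TOP list, stands last for contrast.
Eef1a1, chr9:78481710-78481739, minus strand: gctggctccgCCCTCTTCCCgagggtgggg
Eef1b2, chr1:63176835-63176864, plus strand: gaagtagccgaggCCTTgcgtccgagcgct
Eef2, chr10:81176635-81176664, plus strand: acgtcagcggtCTCTTCCgccgcagccgcc
Eif3f, chr7:108934404-108934433, plus strand: ttctaggCTCTCTCTCTTTCTCggcaagat
Eif4b, chr15:102073772-102073801, plus strand: acgccgcgccaCCCCCTCgcgctgctttac
Eif1, chr11:100319923-100319952, plus strand: gtgagggcagcgcgCTggcgtcacaggggc

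The run was 15 bases in Eif3f, a length reached by 1.68% of the 27025 promoters of the table, and 10 bases in Eef1a1, reached by 8.45%. Eef2 and Eif4b had runs of 7 bases, reached by 26.5% of promoters, Eef1b2 had 4 bases and Eif1 had 2. Counted from the annotated start as base 1, the run spanned the start only in Eef1a1 (-5 to 5) and Eif3f (-4 to 11). It lay downstream in Eif4b (11 to 17), Eef2 (16 to 22) and Eef1b2 (18 to 21), and upstream in Eif1 (-12 to -11). A run of 8 or more bases was found in 2 of the 5 TOP factors, in 9 of the 45 other factors with an entry, in 31 of 65 ribosomal protein genes and in 17.96% of all promoters. The search reads annotated starts, which can differ from the starts used in these cells, and a run is a description of letters.

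Translation factors made up 1.84% and 1.82% of all UMIs in the VAT libraries and 2.30% in the spleen library, that is 10236 and 9978 UMIs in VAT against 13190 in spleen. The summed level in VAT was thus 0.801 times the spleen level in VAT library 2 (95% interval 0.780 to 0.822) and 0.791 times in VAT library 3 (0.770 to 0.812). Both VAT libraries were compared with the same spleen library, so the 2 ratios are not independent. The lower sum was unevenly spread: the elongation factor genes (Eef) summed to 0.706 and 0.718 times the spleen level, against 0.953 and 0.908 for the initiation factor genes (Eif). The Eif sum leans on Eif1, which was above spleen and held 1410 and 1384 of 4671 and 4391 Eif UMIs in VAT. In spleen it held 1158 of 5054. Of the 44 Eif genes compared, 24 and 30 were below spleen, and of the 6 Eef genes compared, 6 and 6 were.

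By the rule of a 2-fold difference in the same direction in each VAT library (log2 ratios with 0.5 added to each count), 3 of the 50 factors were higher in VAT, where 10.3% of the 4635 genes compared were. They were Eif4e3, Eif4ebp1 and Eif4enif1. Eif4enif1 stood at the minimum itself, with 50 UMIs over the libraries, of which 9 were in spleen. Eif4ebp1 had 78, of which 13 were in spleen. Both reached the minimum through their VAT counts, so a high VAT level helped them into the comparison. None of the 50 factors was lower by this rule, where 4.4% of all genes were. At 1.5-fold the same 3 were higher, against 17.9% of all genes, and 12 factors were lower, against 12.8% of all genes: Eef1b2, Eef1d, Eef1g, Eef2kmt, Eif1a, Eif2ak2, Eif3d, Eif3f, Eif3g, Eif3k, Eif3m and Eif4b. Both VAT counts of calls share the spleen library. Between the VAT libraries no factor differed 2-fold, where 4.94% of all genes did. The median log2 ratio over the 50 factors was -0.23 in VAT library 2 and -0.33 in VAT library 3, beside 0.04 and -0.02 over all genes compared. When totals were taken without ribosomal protein genes, the medians were -0.46 and -0.53 beside -0.19 and -0.22, since such a change shifts all genes by the same amount. Under that scaling 1 factor (Eif4e3) was 2-fold higher and 3 (Eef1b2, Eef1g and Eif3g) 2-fold lower, and the split over all genes was 383 higher and 338 lower, against 478 and 204.

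**Figure D1:**
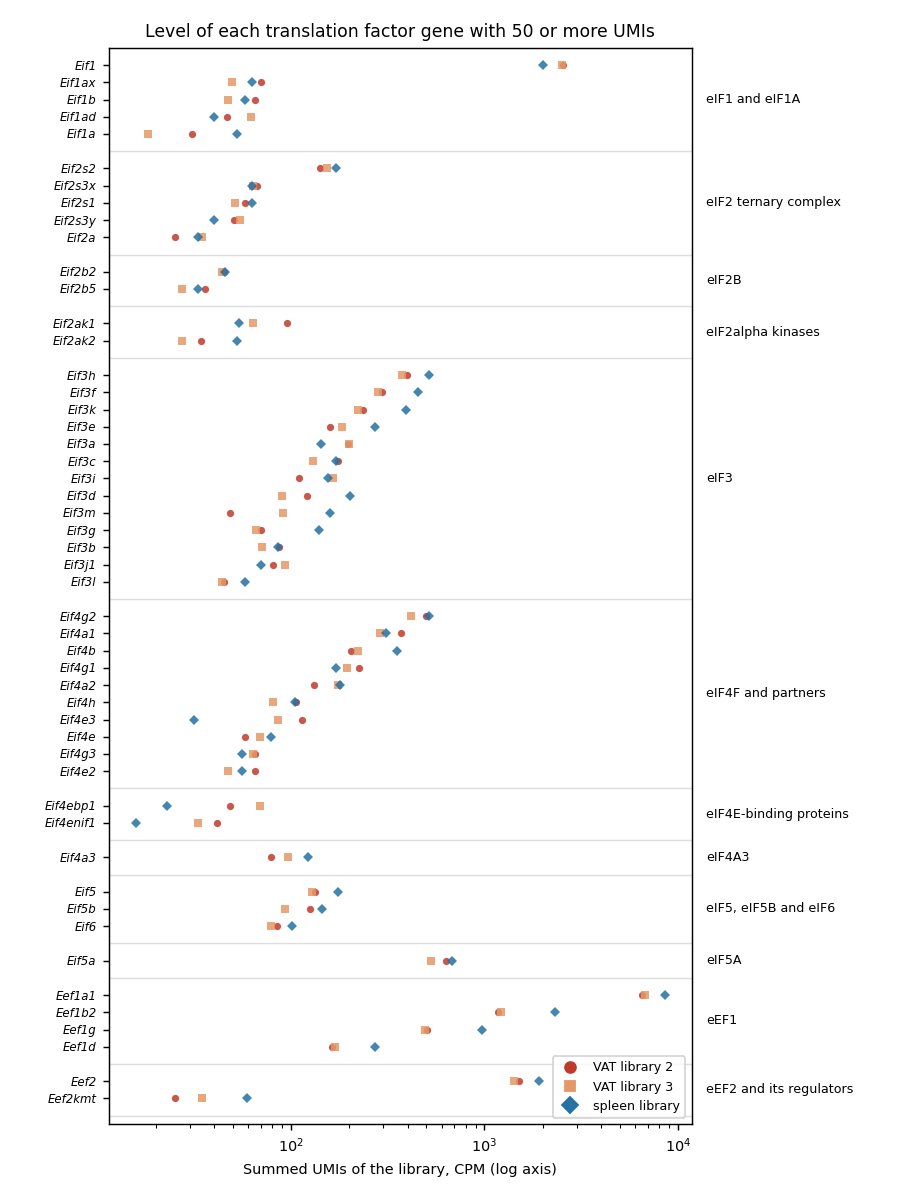
Level of each translation factor with 50 or more UMIs in each library, in CPM on a log axis, grouped by complex, with VAT libraries 2 and 3 listed before spleen. Eef1a1 lies highest in all 3 libraries, and Eif4e3, Eif4ebp1 and Eif4enif1 are the genes with both VAT points 2-fold or more to the right of the spleen point by the rule.

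The elongation factor eEF1A, encoded by Eef1a1, was the most abundant factor, with 3652 and 3733 UMIs in VAT against 4938 in spleen. Its level in VAT was 0.763 times (0.731 to 0.796) and 0.790 times (0.757 to 0.825) that in spleen, and it made up 35.7% and 37.4% of factor UMIs in VAT and 37.4% in spleen. Eef1a2, the paralogue used in muscle and neurons, had no UMI in any library. Eef1a1 has many near-identical pseudogene copies, so its count depends on how reads that map to several places were treated.

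The nucleotide exchange subunits that recharge eEF1A were lower in VAT by more than eEF1A itself. Eef1b2, which encodes the exchange factor eEF1B alpha, had 654 and 667 UMIs in VAT against 1337 in spleen, ratios of 0.505 (0.459 to 0.554) and 0.521 (0.474 to 0.573). Eef1g, which encodes the scaffold subunit of the exchange complex, had 282 and 269 UMIs in VAT against 555 in spleen, ratios of 0.524 (0.453 to 0.606) and 0.507 (0.436 to 0.587). Both genes lay just short of the 2-fold rule in each VAT library. Eef1d, the second exchange factor, had 91 and 93 UMIs in VAT against 155 in spleen, ratios of 0.606 and 0.627. Summed over these 3 subunits the ratio was 0.517 (0.480 to 0.558) and 0.525 (0.487 to 0.567), an interval that did not reach that of Eef1a1 in either library. Accordingly Eef1a1 took 77.8% and 78.2% of eEF1 UMIs in VAT against 70.5% in spleen, while Eef1b2 took 13.9% and 13.97% against 19.1%. These shares do not depend on the library total. Eef1e1, which encodes a small scaffold protein of the tRNA synthetase complex, had 16 and 13 UMIs in VAT against 16 in spleen.

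The translocase gene Eef2 had 838 and 782 UMIs in VAT against 1094 in spleen, ratios of 0.790 (0.721 to 0.865) and 0.747 (0.681 to 0.820). Its proportion to Eef1a1 was close in the 3 libraries, at 18.7% and 17.3% of the pair's UMIs in VAT and 18.1% in spleen. Eef2kmt, which encodes a lysine methyltransferase of eEF2, had 14 and 19 UMIs in VAT against 34 in spleen. Eef2k, the kinase that inhibits eEF2, had 18 and 11 UMIs in VAT against 7 in spleen, too few to enter the comparison.

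Among the initiation factors the small scanning factor eIF1 went the other way from most. Eif1 had 1410 and 1384 UMIs in VAT against 1158 in spleen, ratios of 1.26 (1.16 to 1.36) and 1.25 (1.15 to 1.35). With ribosomal genes left out of the totals its mean log2 ratio was 0.11, against 0.32 with them. Eif1 made up 13.8% and 13.9% of factor UMIs in VAT against 8.78% in spleen, a share that does not depend on library totals. It was the second most abundant factor in VAT, and the third in spleen behind Eef1a1 and Eef1b2. Its near copy Eif1b had 36 and 26 UMIs in VAT against 33 in spleen, and Eif1ax, the X-linked eIF1A gene, had 39 and 27 in VAT against 36 in spleen. Eif1ad, which encodes a protein with an eIF1A-like domain, had 26 and 34 against 23. Eif1a had 17 and 10 UMIs in VAT against 30 in spleen, and is the autosomal near copy of Eif1ax, with which it may share reads.

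**Figure D2:**
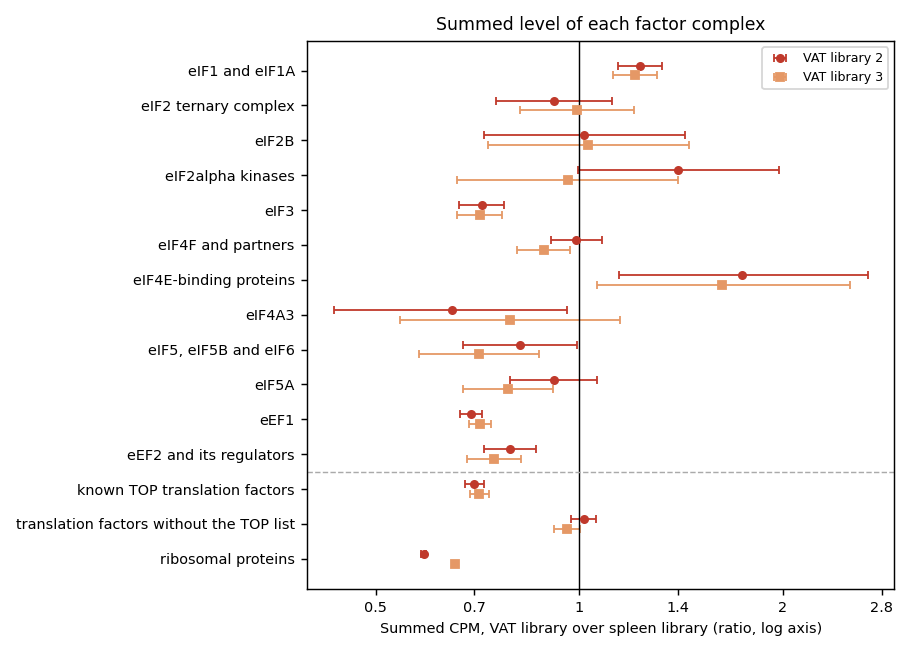
Ratio of summed CPM, VAT over spleen, for each factor complex, and below the dashed line for TOP factors, other factors and ribosomal proteins, on a log axis, with 95% exact binomial intervals that cover counting error only; VAT libraries 2 and 3 are separate points. The eEF1 and eIF3 intervals lie below 1 in both VAT libraries, and those of eIF1 with eIF1A and of the eIF4E-binding proteins lie above 1. As a mean of both libraries the sum of eIF1 with eIF1A was 1.22, and 1.05 with ribosomal genes left out of the totals. For the eIF4E-binding proteins these values were 1.68 and 1.445. Eif1 holds 1410 and 1384 of the 1528 and 1481 UMIs of eIF1 with eIF1A in VAT and 1158 of 1280 in spleen. Of the 5 genes of that group, 1 was below spleen in VAT library 2 and 3 in VAT library 3.

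The 3 subunits of eIF2 were close to their spleen levels. Eif2s2 (beta) had 78 and 84 UMIs in VAT against 98 in spleen, Eif2s1 (alpha, the phosphorylated subunit) 32 and 28 against 36, and Eif2s3x (gamma) 37 and 35 against 36. With Eif2s3y, the Y-linked gamma gene (28 and 30 UMIs in VAT against 23 in spleen), and the initiator tRNA binding factors Eif2a (14 and 19 against 19) and Eif2d (6 and 12 against 7), the sum was 0.918 (0.753 to 1.12) and 0.993 (0.817 to 1.21) times the spleen level. Both intervals include 1. As a mean of both libraries this sum was 0.96, and 0.82 with ribosomal genes left out of the totals. eIF2B, which reloads eIF2 with GTP, summed to 1.02 (0.722 to 1.43) and 1.03 (0.732 to 1.45), with 0.881 as the mean of both libraries when ribosomal genes were left out of the totals. Its best counted subunits were Eif2b2 with 25 and 24 UMIs in VAT against 26 in spleen, Eif2b5, the catalytic subunit, with 20 and 15 against 19, and Eif2b4 with 14 and 14 against 21. Eif2b1 had 8 and 17 UMIs in VAT against 4 in spleen, and Eif2b3 4 and 1 against 2.

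The 4 kinases that phosphorylate eIF2 alpha under stress differed among themselves. Eif2ak1, the heme-regulated kinase, had 53 and 35 UMIs in VAT against 31 in spleen, ratios of 1.76 (1.11 to 2.84) and 1.18 (0.707 to 1.98). Eif2ak2, the kinase PKR that senses double-stranded RNA, had 19 and 15 UMIs in VAT against 30 in spleen, ratios of 0.653 (0.347 to 1.20) and 0.523 (0.261 to 1.0). Eif2ak3, the kinase PERK of the endoplasmic reticulum, had 11 and 5 UMIs in VAT against 1 in spleen, a ratio of 11.3 in VAT library 2 with an interval of 1.65 to 488, and 5.23 in VAT library 3 with 0.585 to 247. Eif2ak4, the kinase GCN2 that senses uncharged tRNA, had 1 and 2 UMIs in VAT and none in spleen, all at or below the 3 counts that a count of 0 allows. Of the 12 genes of an eIF2 alpha phosphatase and stress response list, 5 reached 50 UMIs. Ppp1r15a, the stress-induced phosphatase subunit that reverses eIF2 alpha phosphorylation, had 460 and 441 UMIs in VAT against 29 in spleen, and Atf3, a transcription factor, had 226 and 180 against 4. These were the 2 of the 5 that passed the 2-fold rule upward, where 10.3% of all genes compared did. Both are known to respond quickly when tissue is dissociated, and whether dissociation had a part here was not tested. Atf4, whose mRNA is translated when eIF2 alpha is phosphorylated, had 196 and 173 UMIs in VAT against 104 in spleen, and Ppp1ca, the catalytic phosphatase subunit, 311 and 277 against 300. Ddit3, the transcription factor CHOP that acts downstream of Atf4, was too sparse for the rule and lay the other way, with 5 and 2 UMIs in VAT against 15 in spleen, ratios of 0.344 (0.0978 to 0.995) and 0.139 (0.0155 to 0.599).

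The 13 genes of eIF3, the largest initiation factor, all entered the comparison and summed to 0.718 (0.664 to 0.775) and 0.712 (0.659 to 0.770) times the spleen level. Eif3h had 220 and 205 UMIs in VAT against 296 in spleen, Eif3f 165 and 155 against 259, and Eif3k 131 and 121 against 226. All 3 encode subunits that mammals have and budding yeast lacks, and their ratios ran between 0.560 and 0.767. Eif3e had 88 and 100 UMIs in VAT against 156 in spleen. Eif3d, a cap-binding subunit, had 67 and 49 UMIs in VAT against 115 in spleen. Eif3g, an RNA-binding subunit, had 39 and 36 UMIs in VAT against 80 in spleen, ratios of 0.503 (0.334 to 0.746) and 0.470 (0.308 to 0.705).

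Eif3m had the lowest ratio of the complex in VAT library 2, with 27 UMIs, a ratio of 0.306 (0.191 to 0.475), whereas VAT library 3 had 50, a ratio of 0.574 (0.398 to 0.820), against 91 in spleen. Its gene at chr2:104999656-105017080 overlaps the end of Ccdc73 on the other strand, which had no UMI.

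Eif3a, the large scaffold subunit, and Eif3j1, a loosely bound subunit, had more UMIs in both VAT libraries than in spleen. Eif3a had 110 and 109 UMIs in VAT against 82 in spleen, ratios of 1.38 (1.03 to 1.86) and 1.39 (1.03 to 1.87). With ribosomal genes left out of the totals its mean log2 ratio was 0.25, against 0.47 with them. Its share of eIF3 UMIs was 9.80% (8.12 to 11.7) and 9.91% (8.21 to 11.8) in VAT against 5.08% (4.06 to 6.27) in spleen. Eif3j1 had 45 and 51 UMIs in VAT against 40 in spleen, ratios of 1.16 (0.741 to 1.82) and 1.33 (0.864 to 2.07), and a share of eIF3 UMIs of 4.01% and 4.64% in VAT against 2.48% in spleen. Eif3b (48 and 39 UMIs in VAT against 49 in spleen), Eif3c (97 and 71 against 98) and Eif3i (61 and 90 against 89) had ratios from 0.707 to 1.06. Eif3l had 25 and 24 UMIs in VAT against 33 in spleen. Across the complex the ratios ran from 0.306 (Eif3m) to 1.38 (Eif3a) in VAT library 2 and from 0.445 (Eif3d) to 1.39 (Eif3a) in VAT library 3.

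**Figure D3:**
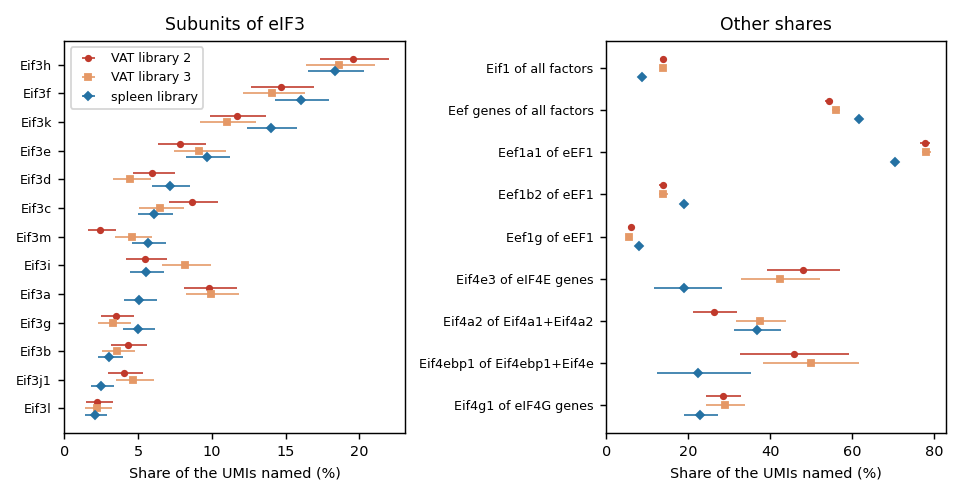
Shares of UMIs within sets of factors, in percent, with exact 95% binomial intervals, for VAT libraries 2 and 3 and then spleen. Eif3a within eIF3, Eif4e3 within the eIF4E genes, Eif4ebp1 beside Eif4e, and Eef1a1 within eEF1 are higher in both VAT libraries than in spleen, and Eef1b2 within eEF1 is lower.

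Among the cap-binding complex and its partners 1 gene passed the 2-fold rule, Eif4e3. It encodes an atypical member of the eIF4E family that binds the cap and has been described as an inhibitor of eIF4E activity. It had 63 and 47 UMIs in VAT against 18 in spleen, or 113 and 85.6 CPM against 31.4, ratios of 3.61 (2.11 to 6.48) and 2.73 (1.56 to 4.99). The other cap-binding genes did not share this: Eif4e had 32 and 38 UMIs in VAT against 45 in spleen, and Eif4e2 36 and 26 against 32. Eif4e3 therefore made up 48.1% (39.3 to 56.99) and 42.3% (33.02 to 52.1) of the UMIs of these 3 genes in VAT against 18.9% (11.6 to 28.3) in spleen. In spleen it was the least counted of the 3, and in both VAT libraries the most counted. After each cell was thinned to 800 UMIs, 7.58% and 7.33% of VAT cells had an Eif4e3 UMI against 2.93% of spleen cells, and without thinning 15.4% and 11.8% against 3.73%. Eif4e1b, an oocyte form, had no UMI. Eif4e3 lies at chr6:99625135-99666771 on the minus strand. The annotated gene Gm20696, which is not among the counted genes, overlaps its last 500 bases on the same strand. Reads of both may thus be mixed, and exons were not compared.

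Of the scaffolds, Eif4g2, which encodes a form that lacks the eIF4E site and works independently of the cap, had 278 and 228 UMIs in VAT against 297 in spleen. Eif4g1, the main scaffold, had 125 and 107 UMIs in VAT against 98 in spleen, and Eif4g3 36 and 35 against 32. The helicase gene Eif4a1 had 205 and 159 UMIs in VAT against 177 in spleen, and its near copy Eif4a2 had 73 and 96 against 103. On the CPM scale the ratios were 1.19 and 0.939 for Eif4a1 and 0.731 and 0.974 for Eif4a2, so the VAT libraries fell on both sides of spleen for Eif4a1 and below it for Eif4a2. The helicase cofactor Eif4b had 114 and 122 UMIs in VAT against 202 in spleen, ratios of 0.582 (0.459 to 0.736) and 0.631 (0.50 to 0.794), the lowest of this group. Its relative Eif4h had 59 and 44 UMIs in VAT against 60 in spleen. The group as a whole summed to 0.990 (0.907 to 1.08) and 0.886 (0.810 to 0.969), and without Eif4e3 to 0.945 and 0.854. Eif4a3, a helicase of the exon junction complex and not of initiation, had 44 and 53 UMIs in VAT against 70 in spleen.

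Proteins that bind eIF4E and hold it away from eIF4G were the other group whose sum had both intervals above spleen, though not every member did. Eif4ebp1 encodes the repressor 4E-BP that mTORC1 switches off by phosphorylation, at chr8:27260329-27276674. It had 27 and 38 UMIs in VAT against 13 in spleen, ratios of 2.14 (1.07 to 4.52) and 3.06 (1.59 to 6.25). Set against its partner, Eif4ebp1 made up 45.8% (32.7 to 59.2) and 50% (38.3 to 61.7) of Eif4ebp1 and Eif4e UMIs in VAT against 22.4% (12.5 to 35.3) in spleen. Thinned to 800 UMIs, 3.64% and 4.78% of VAT cells and 0.80% of spleen cells had an Eif4ebp1 UMI; without thinning these were 5.76% and 8.92% against 2.93%. Every sorted cell should express translation factors, so no cells in these libraries give a background of free RNA for such shares.

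Eif4enif1, the transporter that carries eIF4E into the nucleus and to processing bodies, had 23 and 18 UMIs in VAT against 9 in spleen, ratios of 2.64 (1.18 to 6.47) and 2.09 (0.892 to 5.28). Its interval in VAT library 3 includes 1. The thinned share of cells with a UMI was 3.64% in VAT library 2 and 0.955% in VAT library 3 against 1.60% in spleen, unlike the CPM, so no order was read from it. The gene at chr11:3202392-3244588 ends over Drg1 on the other strand, which had 24 and 20 UMIs in VAT against 39 in spleen. Eif4ebp2 lay the other way but was too sparse for the rule, with 14 and 3 UMIs in VAT against 16 in spleen. Its ratios were 0.903 (0.408 to 1.97) and 0.196 (0.0366 to 0.685). Eif4ebp3 had no UMI. The 4 genes together had a ratio of 1.74 (1.15 to 2.67) and 1.62 (1.06 to 2.51).

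The 3 genes lay at low levels, with Eif4e3 in VAT library 2 the highest of them at 113 CPM. Just short of the rule on its lower side were Eif3g, Eef1b2 and Eef1g. Without the cells that held a marker UMI of another cell type, 216 and 187 cells remained in VAT and 198 in spleen. There the mean log2 ratio was 2.39 for Eif4e3, 1.22 for Eif4ebp1 and 2.45 for Eif4enif1, against 1.62, 1.32 and 1.19 in all cells. Eif4e3 alone still passed the rule, which also asks for 50 UMIs, reached by 39 factors there. Eif4enif1 had 50 UMIs in all cells, so any UMI lost takes it out of the comparison, whatever its ratio. Among cells with a Foxp3 UMI, 128 and 98 in VAT against 130 in spleen, none of the 3 could pass the rule because none reached 50 UMIs, and their mean log2 ratios were 1.16 for Eif4e3, 1.45 for Eif4ebp1 and 1.03 for Eif4enif1.

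Of the factors that join the subunits, Eif5 (the GTPase activator of eIF2) had 74 and 70 UMIs in VAT against 100 in spleen, Eif5b 70 and 51 against 83, and Eif6 (which keeps the large subunit free) 47 and 43 against 58. Their sum was 0.818 (0.673 to 0.993) and 0.711 (0.580 to 0.871) times the spleen level. Eif5a, which relieves stalled ribosomes and carries the modified residue hypusine, had 350 and 289 UMIs in VAT against 390 in spleen, ratios of 0.926 (0.799 to 1.07) and 0.775 (0.663 to 0.904). Its paralogue Eif5a2 had 0 and 7 UMIs in VAT against 4 in spleen.

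**Figure D4:**
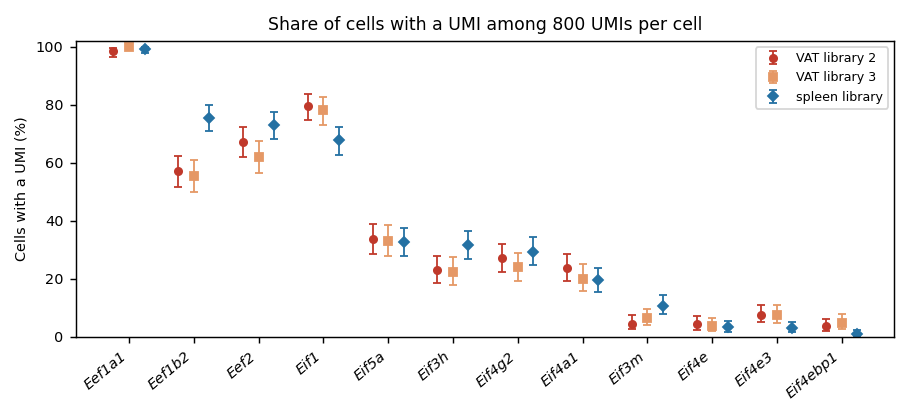
Percent of cells with a UMI of 12 factors after each cell was thinned to 800 UMIs, with exact 95% binomial intervals, for VAT libraries 2 and 3 and then spleen. Eef1b2 was found in fewer cells in VAT and Eif1 and Eif4e3 in more.

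Set against the TOP list, the family divided. The 9 TOP factors summed to 0.70 (0.678 to 0.723) and 0.712 (0.689 to 0.736) times the spleen level, and each of the 9 was below spleen in both VAT libraries, where 48% of all genes were below in VAT library 2 and 51.4% in VAT library 3. The other 54 factors summed to 1.01 (0.972 to 1.06) and 0.959 (0.918 to 1.0), and 21 and 27 of the 41 compared were below spleen. Eif1 alone held 1410 and 1384 of the 4132 and 3852 UMIs of this sum in VAT, against 1158 of 4198 in spleen. Its ratios were 1.26 and 1.25, so the sum leans on that gene. As a mean of both libraries the sum was 0.987, and 0.849 with ribosomal genes left out of the totals. The median log2 ratio was -0.72 and -0.66 in the TOP list, beside -0.01 and -0.26 in the other factors. TOP factors made up 59.6% and 61.4% of factor UMIs in VAT against 68.2% in spleen, a share that does not depend on library totals. In cells with a Foxp3 UMI alone the mean ratio was 0.710 for the TOP list and 0.979 for the other factors. Not every lower factor was on the list: Eif3d, Eif3g, Eif3k and Eif3m had ratios from 0.306 to 0.601. The longest run of C and T near the annotated start had 11 bases in Eif3k and in Eif3m. That lies between the 10 of Eef1a1 and the 15 of Eif3f, which are on the list. The run had 6 bases in Eif3g and 2 in Eif3d. Whether any of these genes belongs on the list was not tested, so the division holds for the list as given.

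Ribosomal proteins, which share the TOP tract, gave 0.589 (0.585 to 0.594) and 0.654 (0.649 to 0.659), with a median log2 ratio of -0.77 and -0.63 over 79 genes, of which 2 passed the 2-fold rule downward. Of other known TOP mRNAs, Tpt1 had 5938 and 6181 UMIs in VAT against 7531 in spleen, and Gnb2l1, which encodes the ribosomal scaffold RACK1, had 1308 and 1343 UMIs in VAT against 2475 in spleen. The Eef1b2 and Eef1g ratios thus lay below that of the ribosomal proteins as a sum, and the Eef1a1 and Eef2 ratios above it.

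Other genes of translation had no member that passed the 2-fold rule. Of 13 termination, recycling and mRNA-binding factors compared none did. The sum over all 17 of that list was 0.779 and 0.764 times the spleen level. Pabpc1, the poly(A) binding protein, had 414 and 424 UMIs in VAT against 528 in spleen. Serbp1, an mRNA-binding protein, had 289 and 312 against 381, and Naca, a ribosome-associated chaperone, 271 and 242 against 521. Ddx3x, a helicase that assists scanning, lay above spleen, with 153 and 119 UMIs in VAT against 78. Of 17 genes compared from a list of cytosolic aminoacyl tRNA synthetases and the scaffold proteins of their complex, none passed. The sum over all 22 genes of that list in the count table was 0.845 (0.756 to 0.942) and 0.748 (0.667 to 0.838). Vars had 59 and 42 UMIs in VAT against 73 in spleen, Qars 53 and 39 against 67, and Nars 46 and 49 against 40. Nars thus had ratios above 1, of 1.19 (0.760 to 1.86) and 1.28 (0.826 to 2.0), as had Sars, with 51 and 38 UMIs in VAT against 28 in spleen, while Kars had 33 and 43 against 58. Of 5 genes compared from a list of mTORC1 and MNK signalling to translation none passed. The sums over all 13 genes of that list in the count table were 1.05 and 0.971. Pdcd4, an inhibitor of eIF4A, had 130 and 149 UMIs in VAT against 197 in spleen, Akt1 113 and 95 against 61, and Mknk2, a kinase of eIF4E, 91 and 80 against 90.

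Per cell, thinned to 800 UMIs, the median was 14 and 15 factor UMIs in the VAT libraries against 18 in spleen, with ranges of 3 to 33 and 5 to 31 in VAT and 5 to 32 in spleen, so the cells of the 2 tissues overlapped over most of the range. No cell lacked a factor UMI. The Eef part had a median of 8 and 8 UMIs per cell in VAT against 11 in spleen, while the Eif part had a median of 6 in all 3 libraries. At this depth the variance over cells was 1.67 and 1.43 times the mean in VAT and 1.46 times in spleen.

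**Figure D5:**
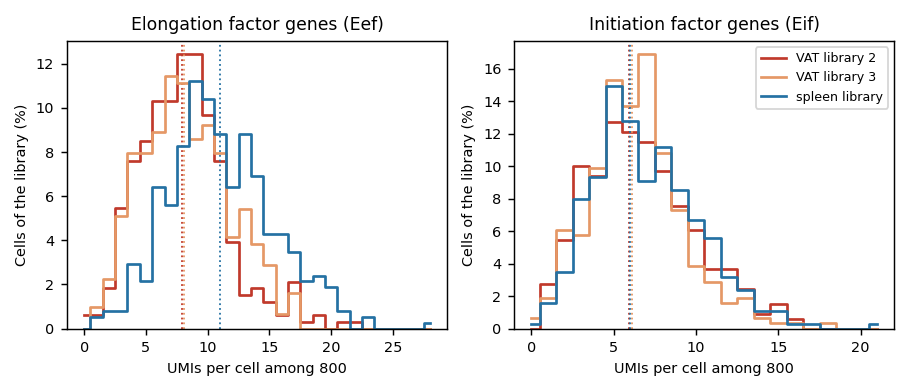
Translation factor UMIs per cell after thinning to 800 UMIs, for Eef and Eif genes in VAT libraries 2 and 3 and then spleen, with each library's median. The Eef medians are 8, 8 and 11 and the Eif medians 6, 6 and 6, with broad overlap between cells of the tissues.

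Within each library, Eef UMIs per thinned cell followed the ribosomal protein UMIs, with a Spearman rho of 0.31 and 0.36 in VAT and 0.46 in spleen. For Eif UMIs the values were 0.03 and 0.06 in VAT and -0.10 in spleen. These are descriptions over the cells of 1 library each, 330 and 314 in VAT and 375 in spleen, and Eef and ribosomal UMIs of a cell share the same fixed total. Eef1a1 was found in 98.5% and 100% of thinned VAT cells and 99.2% of spleen cells, and in 99.7%, 100% and 99.7% without thinning. Eef1b2 was found in 56.97% and 55.4% of VAT cells against 75.5% of spleen cells when thinned, and in 74.8% and 74.8% against 84.3% when not. Eif1 was found in 79.4% and 78.03% of VAT cells against 67.7% of spleen cells when thinned, and in 90.9% and 91.4% against 83.2% when not.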

How the data were processed

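UMI counts per gene symbol and cell, not normalized, are as the authors deposited them. Per the submitters' processing notes, TopHat2, SAMtools and build mm10 were used; the annotation, cell filter, strand setting and any doublet removal are not given in the sources used here. A second table repeats label values and was not used. Counts were summed per library (cells are not replicates, and the labels do not say whether libraries come from separate animals) and divided by its total. Cells held 887 to 3725 and 916 to 4973 UMIs in VAT and 819 to 4244 in spleen, and the limit for a gene without a UMI, 3 counts, is 5.39 and 5.47 CPM in VAT and 5.23 in spleen. Printed ratios have no added count. Intervals are exact 95% binomial ones, and are too narrow where a gene's UMIs gather in few cells. No doublet caller was run. Thinning took 800 UMIs per cell without replacement (seed 1); no cell had fewer. Python 3.11.15, numpy 2.4.6, pandas 2.3.3, scipy 1.17.1 and matplotlib 3.10.9 were used, and the size rule was tested on simulated data. Positions are from GENCODE M21 on GRCm38, which held all 63 symbols; 50 had a promoter entry.

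The members and gene lists were chosen with earlier results of these data known. Genes were named if they passed the 2-fold rule, were among the 20 members with the most UMIs or the first 3 of a complex, or were an eIF2 alpha kinase, a 4E-binding protein or Eef2k, and from other lists if they passed that rule or were the first 3 by UMIs; the remaining members, the markers, Ddit3, Ddx3x, Kars and Sars were named after their values were seen. Near-identical copies (Eef1a1, Eif1 and Eif1b, Eif4a1 and Eif4a2, Eif1a and Eif1ax, Eif2s3x and Eif2s3y) may share reads.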

Additional observations from a re-analysis of the deposited data

How the results depend on the processing

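The VAT libraries hold 2 samples and spleen 1, so the spread of spleen is unknown. No paired analysis was possible because no label ties the spleen library to either VAT library. The count of factors 2-fold higher in VAT was 3, and it was 1 with ribosomal genes left out of the totals, with cells thinned to 800 UMIs, without the 5% of cells with the most UMIs and without cells with a marker UMI of other cell types. Eif4e3 was the gene each time. Only 32 factors reached 50 UMIs when thinned, 47 without the 5% of cells and 39 without marker cells. A gene can thus leave the count by its UMIs alone. Eif4ebp1 did so when thinned, where its mean log2 ratio was 1.80. The count higher in VAT was 0 in cells with a Foxp3 UMI alone, where 30 factors reached 50 UMIs, and 5 with any gene of 1 or more UMI. It was 2 with the mean of per-cell CPM (without Eif4ebp1) and 2 with 1 added to each count (without Eif4enif1). With a VAT library left out it was 3 each time. There it could not fall, since a gene that passes in both VAT libraries passes in each. The count 2-fold lower was 0, and it was 3 without ribosomal genes in the totals (Eef1b2, Eef1g and Eif3g), 1 with median-of-ratios size factors (Eif3g), 1 with the mean of per-cell CPM (Eif3g), 2 in Foxp3 cells (Eef1g and Eif3d), 1 without marker cells (Eef1b2), 12 at 1.5-fold, and 2 and 3 with 1 VAT library left out (Eef2kmt and Eif3m without library 3, Eif1a, Eif3d and Eif3g without library 2). Leaving ribosomal genes out of the totals also moved the median of all genes to -0.19 and -0.22 and the split of all genes to 383 higher and 338 lower, against 478 and 204.

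The mean of both VAT medians, -0.28, was -0.49 without ribosomal genes, -0.41 when thinned and -0.42 in Foxp3 cells, and -0.33 to -0.23 with a library left out. The summed ratio, 0.796, was 0.684 without ribosomal genes, 0.788 with median-of-ratios factors, 0.813 when thinned, 0.812 as a mean per cell, 0.783 without marker cells, 0.807 without Eef1a1 (chosen after seeing the data) and 0.791 to 0.801 with a library left out. The TOP sum, 0.706, was 0.608 (without ribosomal genes), 0.727 (thinned), 0.721 (mean per cell), 0.678 (marker cells out), 0.621 (without Eef1a1) and 0.70 to 0.712 with a library left out. The mean rho of factors with ribosomal UMIs in VAT, 0.29, was 0.37 without thinning. Values that crossed 1 were eIF2B, 0.881 without ribosomal genes and 0.982 in Foxp3 cells against 1.02 to 1.03; the factors outside the TOP list, 1.001 as a mean per cell, 1.02 without marker cells, and 0.959 without library 2 and 1.01 without library 3, against 0.987; eIF4A3, 1.01 in Foxp3 cells; and the eIF2 alpha kinases, 0.961 without library 2 and 1.398 without library 3. The cause was not tested. Of 104 values of 8 genes under the settings, 78 stayed within the spread between VAT libraries, 26 moved and 0 changed sign. Values under the other UMI minimums and the other fold were fixed, since neither enters a gene's ratio. Leaving out a VAT library cannot move the mean beyond that spread. The 78 thus include values that could not move, and are no measure of stability.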

Other observations

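Cells of each library were also divided by whether they held a Foxp3 UMI, which depends on depth as well as on the cell. Factor levels in CPM in cells with a Foxp3 UMI were 1.03 and 0.973 times those in cells without one in the VAT libraries and 0.994 times in spleen, so the family as a whole was nearly level across this division. Eif5a, the hypusine-bearing factor, was 1.19 (0.955 to 1.47) and 0.837 (0.642 to 1.08) times as high in VAT and 1.52 (1.24 to 1.87) times in spleen. Both VAT intervals for Eif5a include 1, and the VAT values lie on either side of it.

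In VAT, cells with a UMI of Klrg1, a receptor of differentiated tissue Tregs, numbered 277 and 280, against 53 and 34 without. The factor sum was 1.03 (0.971 to 1.08) and 0.962 (0.899 to 1.03) times that of the cells without one. Eif5a was higher in cells with a Klrg1 UMI in both libraries, with 315 and 273 UMIs against 35 and 16, ratios of 1.55 (1.09 to 2.27) and 1.73 (1.05 to 3.07). Median UMIs per cell were 1583 and 1628 with a Klrg1 UMI and 1448 and 1372 without.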
